A study of Homo sapiens with 8 samples.

Results

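The transcripts of 9 integrin subunit genes, ITGA4, ITGA5, ITGA6, ITGAL, ITGAM, ITGAE, ITGB1, ITGB2 and ITGB7, were followed in CUTLL1 cells, an established human T-lymphoblastic cell line. They were taken as every probe set (a group of short array probes that together read 1 transcript) annotated to 1 of these genes, which gave 23 of the 54675 probe sets on the array. Of those 54675 probe sets, 41097 were annotated to a single gene and stood for 19775 genes, which were all tested together. The cells were treated for 48 h in 4 groups of 2 samples: PF-03084014 plus dexamethasone at 1 microM each (called the combination), 1 microM dexamethasone, 1 microM PF-03084014, and the vehicle DMSO. PF-03084014 is an inhibitor of gamma-secretase, the protease that releases the active form of NOTCH1, and dexamethasone is a synthetic glucocorticoid that activates the glucocorticoid receptor. All groups share the cell line and the time point, and the 3 comparisons with DMSO share its 2 samples. The labels call the samples replicas and name no separate cultures for them. The p-values below therefore measure only the spread between these samples, which may be technical.

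Integrins are cell surface receptors built from 1 alpha and 1 beta subunit that hold cells to the extracellular matrix or to other cells and carry signals into the cell. In T cells the subunits encoded by ITGAL and ITGB2 pair to form LFA-1, which binds the ICAM proteins, and the product of ITGA4 pairs with that of ITGB1 or ITGB7 to bind VCAM1, fibronectin or MADCAM1. The product of ITGA6 pairs with that of ITGB1 or ITGB4 to bind laminins, and in acute lymphoblastic leukemia the integrins are studied as anchors of leukemic cells to bone marrow and other tissues.

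ITGA6 was the 1 gene of the 9 called higher with dexamethasone, and none was called lower. The size of its rise was stable, but its call lay at the threshold. This call ended in 17 of 20 alternative ways of processing, among them all 8 fits with 1 array left out. Uncalled dexamethasone differences with a 95% interval that left out 0 were -0.72 for ITGAM, -0.50 for ITGA5 and 0.24 for ITGAE on the log2 scale. The level of ITGA6 was 4.22 times that of DMSO cells after dexamethasone and 8.71 times after the combination. ITGAM, the alpha subunit of Mac-1, fell with the combination, to a level 3.28-fold lower than in DMSO cells. For the other 7 genes no comparison passed the test. The differences of those 7 from DMSO lay between -0.50 (ITGA5 with dexamethasone) and 0.56 (ITGB7 with the combination) on the log2 scale.

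Each value is the intensity of a probe set, not on a log scale, floored at 16 and compared after taking log2. Each gene is represented by its brightest probe set, and a difference is called when its Benjamini-Hochberg adjusted p, over all 19775 genes in limma, is under 0.05 (two-sided). The median intensity was 76.3 on the second combination array and between 61.8 and 63.9 on the other 7. The 2 combination arrays also differed more from each other than other replicates did: 1802 genes lay over 2-fold apart, against 426 for dexamethasone, 347 for PF-03084014 and 482 for DMSO. For the integrin genes and the related genes named below, called differences of the combination from DMSO are therefore also given without the second combination array. Most differences that were not called are given on all arrays only. All 16 measured T-lineage markers, CD3D, CD3E, CD7 and CD2 among them, were above 100 on all 8 arrays. Of 15 glucocorticoid receptor target genes, 5 were called higher with dexamethasone and none lower. Over all genes 0.086% were called higher there. With PF-03084014 7 of 13 NOTCH target genes were called lower and none higher, where 0.349% of all genes were called lower. Both lists were chosen with earlier results of these data known, so these counts are not an independent check of the treatments. TSC22D3, a classical glucocorticoid target, had intensities of 5526 and 5478 with dexamethasone, against 506 and 583 with DMSO. NRARP, a NOTCH target, had 948 and 898 with PF-03084014, against 6280 and 5414 with DMSO.

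The 9 genes were measured with unequal security. Of the 23 probe sets, 18 were above the 90th percentile of 27 bacterial control probe sets that were not spiked into the samples, on all 8 arrays; that percentile lay between 45.0 and 60.1 across the arrays. ITGA4 had 4 probe sets, ITGB2 had 3, ITGAL had 2, and ITGA5, ITGAE and ITGB7 had 1 each, all of them among the 18. ITGB1 had 7, of which 4 were among the 18, and ITGA6 and ITGAM had 2 each, of which 1 was. The intensity of one probe set cannot be set against that of another, so levels are compared between treatments and not between genes.

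ITGA6 (chromosome 2, 172427336 to 172506459, GRCh38.p14) encodes CD49f, the alpha subunit of laminin receptors. Its probe set 201656_at had intensities of 1498 and 1709 with the combination, 788 and 762 with dexamethasone, 277 and 318 with PF-03084014, and 157 and 216 with DMSO. The 4 groups did not overlap and stood in this order, the combination highest and DMSO lowest. Since RNA came from whole cultures, a larger share of cells with the transcript and more transcript per cell cannot be told apart.

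Against DMSO, dexamethasone raised ITGA6 by 2.08 ± 0.17 (log2 difference ± SE, n = 2 arrays a group; adjusted p = 0.0466 in limma), a 4.22-fold change with a 95% confidence interval of 3.12 to 5.70. Among all 19775 genes this was the 12th highest difference. The size was steadier than the call: over 20 alternative ways of processing it stayed between 1.79 and 2.31, but the adjusted p ran from 0.000640 to 0.220 and was above 0.05 in 17 of them, including each of the 8 fits with 1 array left out. PF-03084014 alone gave a difference of 0.69 ± 0.17, and both of its arrays were above both DMSO arrays, but this was not called (adjusted p = 0.174 in limma).

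With the combination, ITGA6 rose by 3.12 ± 0.17 against DMSO (adjusted p = 0.00229 in limma), which is 8.71-fold with an interval of 6.45 to 11.8, and without the second combination array the rise was 3.03 (adjusted p = 0.0112). It was also higher with the combination than with dexamethasone alone, by 1.05 ± 0.17 (2.06-fold; adjusted p = 0.0317 in limma), and higher than with PF-03084014 alone, by 2.43 ± 0.17 (5.39-fold; adjusted p = 0.0148). Without the second combination array these differences were 0.95, no longer called (adjusted p = 0.0999), and 2.34 (adjusted p = 0.0358). Over 20 alternative ways of processing they ran from 0.93 to 1.14 and from 2.33 to 2.53. The call ended in 8 of the 20 against dexamethasone and in 5 against PF-03084014. Adding the changes of the single compounds gives 2.77 against the measured 3.12. The interaction of 0.35 ± 0.24 was not called (adjusted p = 0.678 in limma, interval -0.26 to 0.97).

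**Figure D1:**
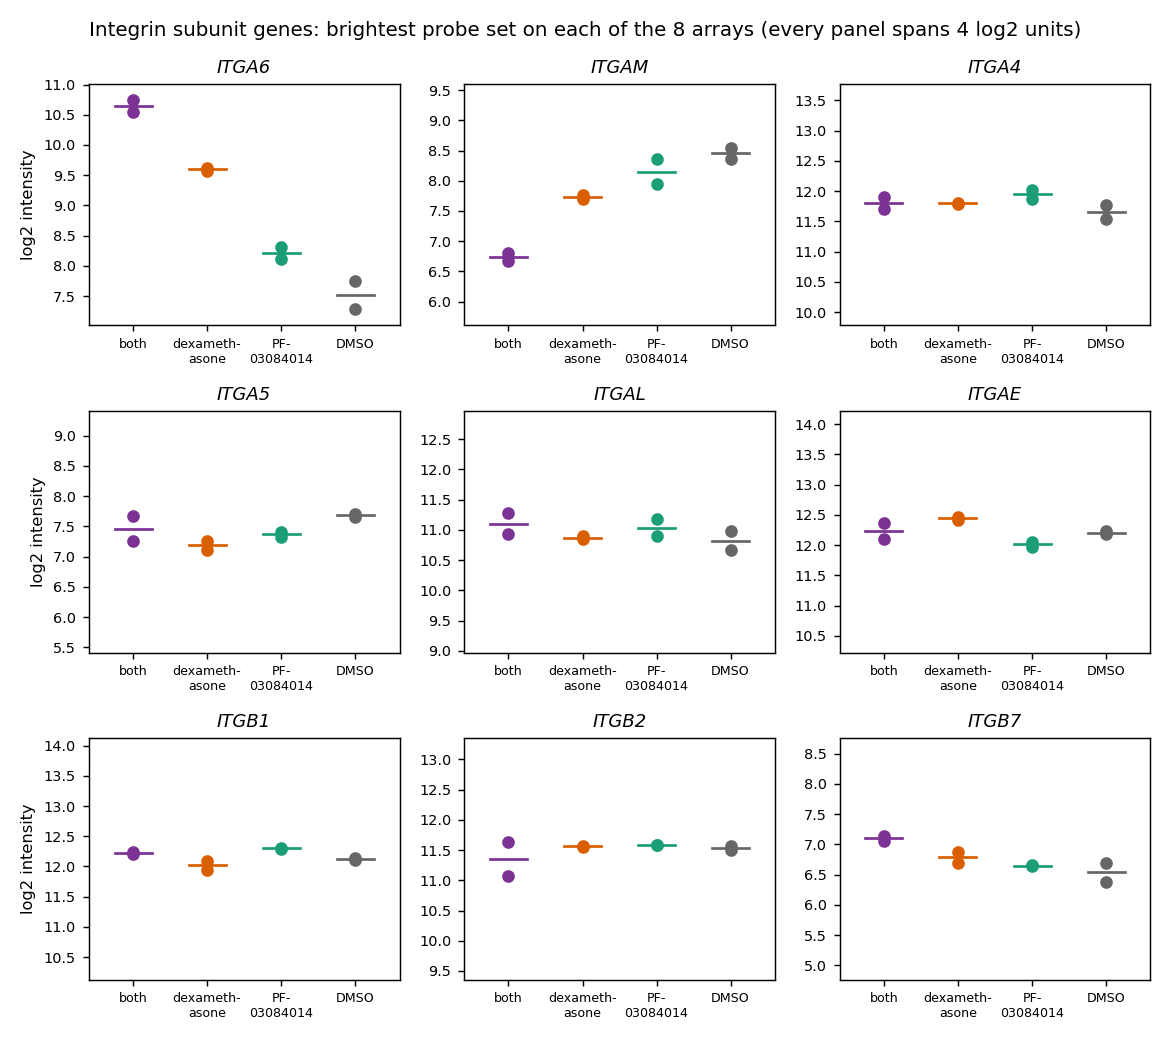
Log2 intensity of the brightest probe set of each of the 9 integrin genes on the 8 arrays, 1 panel a gene, with points for arrays and bars for group means, in the order both compounds, dexamethasone, PF-03084014 and DMSO; every vertical axis spans the same range of log2 units, so that changes can be compared between panels. ITGA6 steps down from the combination to DMSO and ITGAM steps up, while the groups of ITGAL and ITGB2 lie close together.

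The second ITGA6 probe set, 215177_s_at, was dim. It had intensities of 153 and 60.6 with the combination, 50.8 and 51.1 with dexamethasone, 15.0 and 19.5 with PF-03084014, and 17.9 and 18.0 with DMSO. It exceeded the 90th percentile of the controls on 3 arrays, and its PF-03084014 and DMSO values were near the control medians of 18.6 to 23.4. In a fit of all 41097 probe sets its difference was 2.43 ± 0.44 for the combination (adjusted p = 0.0377 in limma) and 1.51 ± 0.44 for dexamethasone (adjusted p = 0.478). In that fit the bright probe set 201656_at kept its call for the combination (adjusted p = 0.00381) but not for dexamethasone (adjusted p = 0.0735). Both ITGA6 probe sets were thus higher on every dexamethasone and combination array than on any PF-03084014 or DMSO array.

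The bases just upstream of ITGA6 and ITGAM, the genes with called changes, are shown because dexamethasone acts through a DNA-binding receptor. They are the 250 bases before the annotated start of each gene (RefSeq, GRCh38.p14, + strand), at chr2:172427086-172427335 and chr16:31259725-31259974, printed 5′ to 3′ with capitals for AGAACA, the half-element of the glucocorticoid receptor.
ITGA6: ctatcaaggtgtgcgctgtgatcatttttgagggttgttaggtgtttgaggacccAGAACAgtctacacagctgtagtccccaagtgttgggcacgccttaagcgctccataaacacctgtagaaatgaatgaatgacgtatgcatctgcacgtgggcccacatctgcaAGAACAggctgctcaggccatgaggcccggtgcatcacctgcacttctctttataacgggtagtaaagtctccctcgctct
ITGAM: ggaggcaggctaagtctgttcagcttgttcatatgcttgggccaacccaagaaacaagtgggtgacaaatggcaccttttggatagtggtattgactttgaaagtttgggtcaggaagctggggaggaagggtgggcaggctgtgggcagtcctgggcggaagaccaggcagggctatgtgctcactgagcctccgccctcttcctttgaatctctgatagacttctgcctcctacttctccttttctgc
The ITGA6 window holds AGAACA 2 times, starting 195 and 81 bases before the annotated start, and the ITGAM window does not hold it. Searched on both strands, AGAACA was found in 12.39% of 35116 such windows of all genes, and 2 or more times in 1.307%. Neither window holds the full glucocorticoid receptor element, GNACA and TGTNC with 3 bases between them (found in 0.3275% of windows), or TGGGAA, the core of the site of RBPJ, the DNA-binding partner of NOTCH (20.85%). A second annotated start of ITGA6 has a window without AGAACA. Of the 9 genes, 7 were in the RefSeq promoter table, with 9 windows, and none of the others held AGAACA; ITGAL and ITGB2 were not matched. A match describes these letters only and no binding was measured.

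ITGAM (chromosome 16, 31259975 to 31332877) encodes CD11b, which pairs with the ITGB2 product and is best known from myeloid and natural killer cells. Its probe set 205786_s_at had intensities of 112 and 102 with the combination, 218 and 208 with dexamethasone, 248 and 327 with PF-03084014, and 330 and 372 with DMSO. No 2 groups overlapped, and the order was the reverse of that of ITGA6. With the combination ITGAM fell by 1.72 ± 0.17 on the log2 scale against DMSO (adjusted p = 0.00565 in limma), a 3.28-fold lower level that ranked 86th from the lowest of 19775 genes. Without the second combination array it fell by 1.65 (adjusted p = 0.0225).

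ITGAM was also called lower with the combination than with each compound alone, but these calls depended on the processing. The difference was -0.99 ± 0.17 from dexamethasone (1.99-fold lower, adjusted p = 0.0326 in limma) and -1.42 ± 0.17 from PF-03084014 (2.67-fold lower, adjusted p = 0.0253). Over 20 alternative ways of processing they ran from -1.11 to -0.44 and from -1.62 to -0.02. The call ended in 11 of the 20 against dexamethasone and in 10 against PF-03084014. Without the second combination array neither was called, at -0.93 (adjusted p = 0.0886) and -1.35 (adjusted p = 0.0639). Dexamethasone alone gave -0.72 ± 0.17 (adjusted p = 0.305 in limma) and PF-03084014 alone -0.30 ± 0.17 (adjusted p = 0.561), neither of them called. The single changes add to -1.02, against -1.72 measured, and the interaction of -0.69 ± 0.23 was not called (adjusted p = 0.498 in limma; interval -1.29 to -0.10).

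The call on ITGAM rests on 1 of its 2 probe sets. The other, 205785_at, read 38.7 and 40.4 with the combination, 58.1 and 49.7 with dexamethasone, 29.1 and 55.5 with PF-03084014, and 60.4 and 48.2 with DMSO, and exceeded the control 90th percentile on 4 arrays. Its combination values were below both DMSO values, but the difference of -0.45 ± 0.34 was not called (adjusted p = 0.462 in limma). When the mean of both probe sets stood for the gene, the difference was -1.08 and the call ended (adjusted p = 0.0521).

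Other cell types that carry CD11b were looked for beside this fall. Of 7 measured myeloid markers none was above 100 on all 8 arrays, and CD14, the monocyte receptor for bacterial lipopolysaccharide, lay between 4.62 and 19.4. MPO, the neutrophil peroxidase, was lower on the combination arrays, at 47.5 and 33.7, against a highest DMSO value of 71.0, and both lay below both DMSO arrays. CSF1R, a macrophage growth factor receptor, was higher there than with DMSO, at 104 and 210, against 86.3 and 99.7. It had 79.1 and 108 with dexamethasone and 105 and 101 with PF-03084014. Only the second combination array, the one with the higher median, thus stood above all arrays of the other groups. The summed myeloid intensity ranged over 288 to 363 with the combination, 277 to 304 with dexamethasone, 276 to 292 with PF-03084014 and 246 to 260 with DMSO. These markers mostly lay near the control signal and moved in both directions, and their part in the ITGAM result was not tested. Of 5 natural killer markers 3 were above 100 on all arrays, and their sum ranged over 1348 to 1604 with the combination, 1713 to 1785 with dexamethasone, 1645 to 1653 with PF-03084014 and 1716 to 1912 with DMSO. NKG7, a cytotoxic granule protein, had 606 and 512 with the combination, 986 and 1064 with dexamethasone, 898 and 908 with PF-03084014, and 1262 and 1106 with DMSO. GNLY, another granule protein, went the other way, with 384 and 557 for the combination, against 285 and 256 for DMSO. NCR1, an activating receptor, had 133 and 362 with the combination, on both sides of the 146 and 144 with DMSO. With the combination 1 of the 5 was called lower than DMSO, 1 lower than dexamethasone and 1 lower than PF-03084014. Over all genes 5.52%, 3.97% and 1.75% were called lower in these comparisons. The natural killer markers thus did not all move together, and their part in the ITGAM result was not tested.

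The leukocyte integrin subunits that form LFA-1 were not called in any comparison. ITGAL (chromosome 16, 30472742 to 30523185), the alpha subunit CD11a, had 1958 and 2473 with the combination, 1907 and 1839 with dexamethasone, 1902 and 2325 with PF-03084014, and 1627 and 2015 with DMSO on probe set 213475_s_at. Every treated group overlapped DMSO, and the differences from DMSO were 0.28 ± 0.17, 0.05 ± 0.17 and 0.22 ± 0.17 in that order of treatments. The other ITGAL probe set, 1554240_a_at, went the other way with the combination, with 1462 and 1208 against 1868 and 2630 with DMSO, a difference of -0.74 ± 0.21 (adjusted p = 0.108 in limma). The 2 bright probe sets of ITGAL thus disagree in sign, so no direction is given for this gene.

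ITGB2 (chromosome 21, 44885953 to 44928815), the shared beta subunit CD18, had 3182 and 2155 with the combination, 3044 and 2997 with dexamethasone, 3075 and 3087 with PF-03084014, and 2913 and 3035 with DMSO. The 6 arrays without the combination lay close together, and 1 combination array was below and 1 above them all. These values are from its brightest probe set, 202803_s_at. The differences from DMSO were -0.18 ± 0.17 for the combination (interval -0.62 to 0.26), 0.02 ± 0.17 for dexamethasone (-0.42 to 0.46) and 0.05 ± 0.17 for PF-03084014 (-0.39 to 0.49). Of the 3 bright ITGB2 probe sets, 2 were lower and 1 higher with the combination, and all 3 were higher with dexamethasone. The 1 higher with the combination, 236988_x_at, gave 0.53 ± 0.30 there (adjusted p = 0.356 in limma). With dexamethasone it gave 0.55 ± 0.30 (adjusted p = 0.814). No direction is therefore given for ITGB2 with the combination. On 202803_s_at the combination difference depended on the array used. It was -0.46 without the first combination array and 0.10 without the second, and each of those fits has 1 combination array.

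The subunits for VCAM1, fibronectin and laminin were also not called, apart from ITGA6. ITGA4 (chromosome 2, 181457205 to 181538940), which encodes CD49d, had 3849 and 3356 with the combination, 3569 and 3551 with dexamethasone, 3747 and 4149 with PF-03084014, and 2972 and 3507 with DMSO on its brightest probe set. The differences from DMSO were 0.15 ± 0.11, 0.14 ± 0.11 and 0.29 ± 0.11 in that order, and the largest had an adjusted p of 0.353 in limma. Of the 4 ITGA4 probe sets, 3 were higher with the combination and 205885_s_at was lower, at -0.32 ± 0.08 (adjusted p = 0.0715).

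ITGA5 (chromosome 12, 54395261 to 54419266), the fibronectin receptor subunit CD49e, had 153 and 204 with the combination, 154 and 138 with dexamethasone, 170 and 161 with PF-03084014, and 209 and 203 with DMSO. Both arrays of each single compound lay below both DMSO arrays. The differences were -0.22 ± 0.17 with the combination, -0.50 ± 0.17 with dexamethasone (adjusted p = 0.479 in limma) and -0.32 ± 0.17 with PF-03084014, none of them called. With dexamethasone the interval ran from -0.93 to -0.07, so these arrays do not bound the change of ITGA5 closely.

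ITGB1 (chromosome 10, 32900318 to 32958230) encodes CD29, the beta subunit that can pair with the products of ITGA4, ITGA5 and ITGA6. It had 4709 and 4857 with the combination, 3953 and 4360 with dexamethasone, 5023 and 5053 with PF-03084014, and 4397 and 4489 with DMSO. On the brightest probe set of each gene, these were the most tightly measured differences of the 9 genes. They were 0.11 ± 0.05, -0.10 ± 0.05 and 0.18 ± 0.05 in that order. With dexamethasone the interval ran from -0.23 to 0.04. On that probe set the combination exceeded dexamethasone alone by 0.20 ± 0.05, which was not called (adjusted p = 0.0911 in limma). Of the 7 ITGB1 probe sets, 3 were never above the control 90th percentile, and 1 of those 3 was at the floor on all 8 arrays. The 4 bright ones were all higher with PF-03084014 than with DMSO, by 0.16 to 0.26, but 3 of the 4 were lower with the combination. Between the combination and dexamethasone alone, 2 of the 4 were higher and 2 lower, from -0.42 to 0.20. No direction is therefore given for ITGB1 in that comparison.

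ITGAE (chromosome 17, 3714628 to 3801188) encodes CD103, the alpha subunit that binds E-cadherin in partnership with the ITGB7 product. It had 5291 and 4400 with the combination, 5664 and 5469 with dexamethasone, 4232 and 4030 with PF-03084014, and 4800 and 4628 with DMSO. The dexamethasone arrays were the highest and the PF-03084014 arrays the lowest, on opposite sides of DMSO. The differences were 0.03 ± 0.09 with the combination, 0.24 ± 0.09 with dexamethasone (adjusted p = 0.539 in limma; interval 0.01 to 0.47) and -0.19 ± 0.09 with PF-03084014 (adjusted p = 0.480), none of them called.

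ITGB7 (chromosome 12, 53191323 to 53207251), the beta subunit of the gut-homing receptors, had 133 and 141 with the combination, 117 and 103 with dexamethasone, 100.2 and 100.7 with PF-03084014, and 103 and 83.4 with DMSO. Both combination arrays were above the other 6. The difference from DMSO was 0.56 ± 0.17 with the combination, which was not called (adjusted p = 0.0987 in limma; interval 0.14 to 0.98), 0.25 ± 0.17 with dexamethasone and 0.11 ± 0.17 with PF-03084014.

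**Figure D2:**
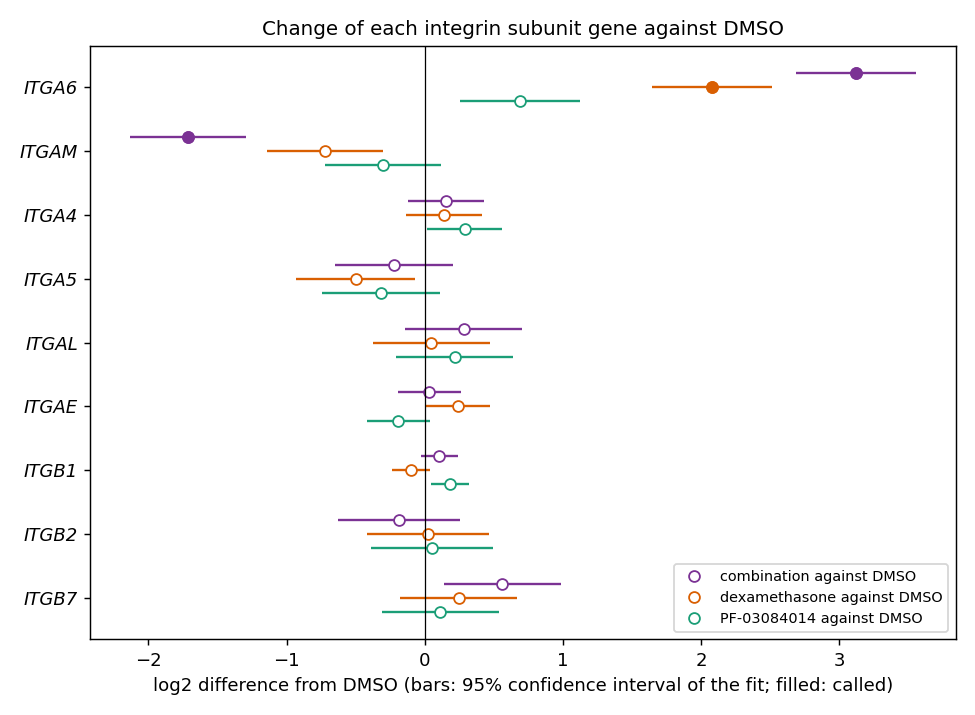
Log2 difference of each integrin gene from DMSO for the combination, dexamethasone and PF-03084014, with bars for the 95% confidence interval of the fit and filled points for called differences. The filled points are ITGA6 with the combination (3.12) and dexamethasone (2.08) and ITGAM with the combination (-1.72); the other points lie between -0.72 and 0.69.

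Counted over the 9 genes, the combination gave 1 called gene higher and 1 lower than DMSO, where 11.9% of all genes were called (6.42% higher and 5.52% lower). Dexamethasone gave 1 higher and 0 lower, where 0.101% of all genes were called (0.086% higher and 0.0152% lower). PF-03084014 gave 0, where 0.819% were called. The combination gave 1 higher and 1 lower than dexamethasone alone, where 7.23% of all genes were called (3.26% higher and 3.97% lower). It gave 1 higher and 1 lower than PF-03084014 alone, where 2.84% were called (1.09% higher and 1.75% lower). No gene of the 19775 was called for the interaction by limma. At an unadjusted p under 0.05 in limma, 3 of the 9 passed for the combination against DMSO (28.4% of all genes), 4 for dexamethasone (8.96%) and 3 for PF-03084014 (13.2%). With the combination set against each single compound 3 passed that limit, where 25.9% of all genes did against dexamethasone and 18.7% against PF-03084014. For the interaction 1 of the 9 passed it, ITGAM (9.06%). With 1 or 2 of 9 genes called, the shares for the combination are not read as different from the background. The median difference from DMSO over the 9 genes was 0.11 with the combination, 0.05 with dexamethasone and 0.11 with PF-03084014, against 0.06, 0.01 and 0.02 over all genes.

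Whether the 2 arrays of a treatment both lay beyond both DMSO arrays is a weaker criterion that many genes met. With the combination 3 of the 9 genes lay above and 1 below (29.1% and 21.5% of all genes). With dexamethasone 3 lay above and 3 below (24.9% and 17.7%), and with PF-03084014 4 above and 3 below (26.9% and 19.6%). With the combination set against dexamethasone alone 4 lay above and 2 below (27.9% and 23.4%), and against PF-03084014 alone 3 above and 2 below (23.2% and 20.1%). In a fit of every probe set of the array, 2 of the 23 integrin probe sets were higher and 1 lower with the combination (7.95% of all probe sets called), and none was called with dexamethasone (0.0487%) or PF-03084014 (0.394%). Against each single compound the combination had 1 integrin probe set higher and 1 lower, where 3.84% of all probe sets were called against dexamethasone and 1.4% against PF-03084014, and none was called for the interaction (0.00243%). Of the 23, the 3 called for the combination against DMSO were both of ITGA6 and the bright one of ITGAM.

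**Figure D3:**
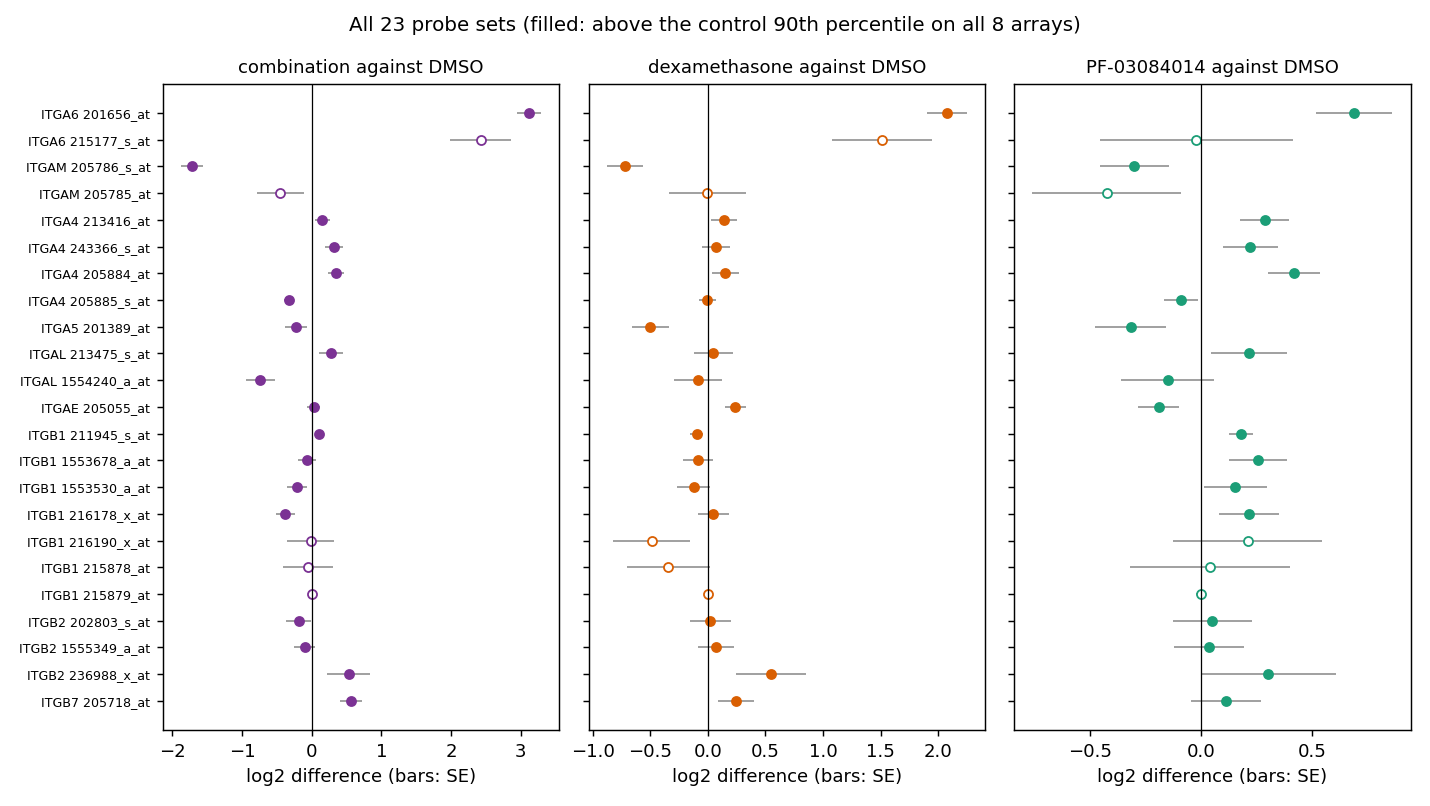
Log2 difference from DMSO of all 23 integrin probe sets for the combination, dexamethasone and PF-03084014, with bars for the standard error; filled points are the 18 probe sets above the control 90th percentile on all 8 arrays, and the horizontal scales differ between panels. The bright probe sets of ITGAL, ITGA4, ITGB1 and ITGB2 lie on both sides of 0 with the combination.

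Among 16 other integrin subunit genes measured on the array, 2 gave a call, ITGA1 and ITGA11. With the combination 1 was higher and 1 lower than DMSO, a share near the 11.9% of all genes called there. With PF-03084014 1 was lower, where 0.819% of all genes were called. ITGA1 encodes the alpha subunit CD49a, which pairs with the ITGB1 product to bind collagen. It had intensities of 97.9 and 92.1 with the combination, 319 and 413 with dexamethasone, 145 and 179 with PF-03084014, and 510 and 611 with DMSO. The groups did not overlap. ITGA1 fell with PF-03084014 by 1.79 ± 0.19 on the log2 scale against DMSO (3.46-fold lower; adjusted p = 0.0320 in limma), a call that ended in 6 of 8 fits with 1 array left out, where the adjusted p was at most 0.152. With the combination ITGA1 fell by 2.56 ± 0.19 (5.88-fold lower; adjusted p = 0.00374), and by 2.51 without the second combination array (adjusted p = 0.0152). With dexamethasone its difference of -0.62 ± 0.19 was not called (adjusted p = 0.428). ITGA11, also a collagen receptor subunit, was higher with the combination by 0.61 ± 0.13 (adjusted p = 0.0377 in limma), a call that ended without the second combination array (adjusted p = 0.0643) and in 7 of 8 fits with 1 array left out.

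The remaining 14 of these 16 genes were not called in any comparison with DMSO, and 9 of the 16 had a mean intensity under 100. ITGB4, the other beta partner of the ITGA6 product, lay between 56.9 and 88.4 on the 8 arrays, with differences from DMSO of -0.03 with the combination, -0.14 with dexamethasone and -0.28 with PF-03084014. ITGAV, the alpha subunit of several vitronectin receptors, had 699 and 810 with the combination, against 672 and 615 with DMSO. Its difference of 0.23 was not called (adjusted p = 0.175 in limma). The largest uncalled rises with the combination were 1.18 ± 0.31 for ITGA2 (adjusted p = 0.0731 in limma) and 1.00 ± 0.24 for ITGA10 (adjusted p = 0.0558). ITGA2 had 179 and 203 with the combination, against 112 and 62.7 with DMSO. ITGA10 had 185 and 295, against 114 and 120. The largest uncalled fall was -0.80 ± 0.34, for the dim ITGB8.

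Ligands and counter-receptors of the integrins gave no call in the comparisons with DMSO among 21 measured genes, of which 17 had a mean intensity under 100. Over all genes 11.9% were called with the combination, 0.101% with dexamethasone and 0.819% with PF-03084014. The lack of calls in this list is not read as different from these shares. The ligand or counter-receptor with the smallest p was ICAM2, a ligand of LFA-1, with 2734 and 1945 for the combination, against 3544 and 3344 for DMSO. Its difference was -0.58 ± 0.16 (adjusted p = 0.0842 in limma). Without the second combination array it was -0.33. Of 33 genes for integrin activation, adaptors and kinases, 4 rose and 1 fell with the combination, none was called with dexamethasone, and 1 rose with PF-03084014. The 5 of 33 with the combination are a share near the 11.9% of all genes called there. The adaptor gene FYB1, which links T cell receptor signals to integrin activation, had 4343 and 4722 with the combination, 2107 and 2160 with dexamethasone, 3575 and 4266 with PF-03084014, and 1859 and 2156 with DMSO. The arrays with PF-03084014 in the medium, alone or in the combination, were all higher than the others. FYB1 rose by 1.18 ± 0.11 with the combination (adjusted p = 0.00560 in limma; 1.12 and 0.0248 without the second combination array) and by 0.96 ± 0.11 with PF-03084014 (adjusted p = 0.0399), and the call with PF-03084014 ended in each of the 8 fits with 1 array left out (adjusted p 0.0517 to 0.186). Of the 5 FYB1 probe sets, 2 were lower than DMSO with the combination, neither of them called.

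Among the others of that list, the scaffold gene NEDD9 rose with the combination by 0.58 ± 0.09 (adjusted p = 0.0207 in limma) and RAP1B, a small GTPase that activates integrins, by 0.26 ± 0.03 (adjusted p = 0.00876). PXN, the focal adhesion adaptor paxillin, fell by 0.42 ± 0.09 (adjusted p = 0.0365). Without the second combination array NEDD9 and RAP1B stayed called (adjusted p = 0.0457 and 0.0138) and PXN did not (adjusted p = 0.0911). Over all 8 fits with 1 array left out, the call ended in 4 for NEDD9 (adjusted p up to 0.0998), in 2 for RAP1B (up to 0.0553) and in 7 for PXN (up to 0.158). Of 15 tetraspanins and lateral partners CD53 rose with the combination, by 0.82 ± 0.06 (adjusted p = 0.00361 in limma; 0.88 and 0.00999 without the second combination array). Its intensities were 6559 and 6048 with the combination, 4143 and 4299 with dexamethasone, 4498 and 4837 with PF-03084014, and 3614 and 3535 with DMSO. Of 15 other adhesion and homing receptors CD2, which binds CD58 on other cells, rose with the combination by 1.12 ± 0.10 (adjusted p = 0.00486 in limma; 1.26 and 0.00926 without that array), and SELPLG, the selectin ligand, by 0.36 ± 0.08 (adjusted p = 0.0449; 0.45 and 0.0330 without it). The SELPLG call ended in 6 of 8 fits with 1 array left out (adjusted p up to 0.175), and those of CD53 and CD2 in none of them. CD6, a T cell co-receptor, was lower with the combination than with PF-03084014 alone, by -0.25 ± 0.04 (adjusted p = 0.0365), a call that ended in 6 of 8 fits with 1 array left out. Neither of these lists had a gene called with dexamethasone alone, where 0.101% of all genes were called. With the combination against DMSO 1 of the 15 tetraspanins and partners and 2 of the 15 other adhesion receptors were called. Over all genes 11.9% were called there, and these shares are not read as different from it. The median difference of the combination from DMSO was 0.22 for the other integrin subunits, 0.05 for the ligands, 0.02 for the activators and adaptors, -0.02 for the tetraspanins and 0.32 for the other adhesion receptors, against 0.06 for all genes.

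**Figure D4:**
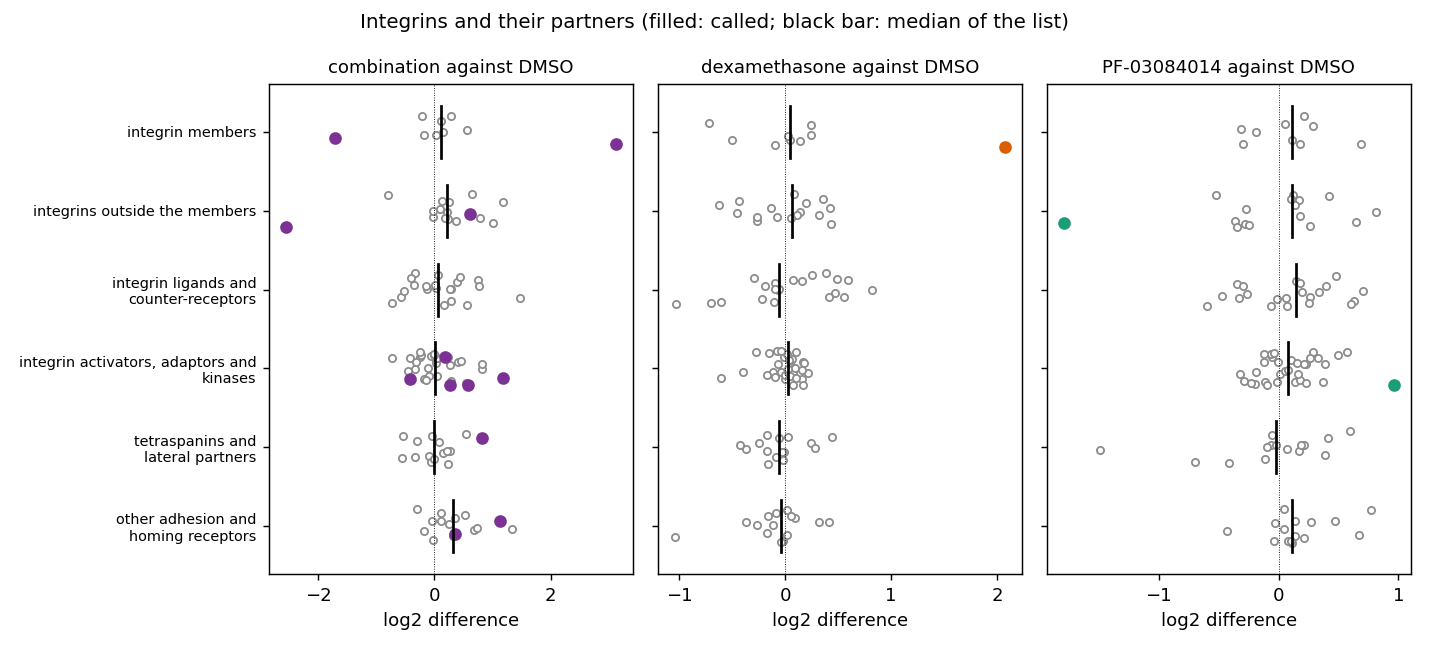
Log2 difference from DMSO of the 9 integrin genes and of 5 lists of related genes, 1 point a gene, with filled points for called differences and black bars for the median of each list; the horizontal scales differ between panels and points are spread vertically for legibility. ITGA6 is the filled point of the dexamethasone panel, and ITGA1 (-1.79) and FYB1 (0.96) are those of the PF-03084014 panel.

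The genes with the pattern most like that of ITGA6 were ranked by the Pearson correlation of log2 intensity over the 8 arrays, among 530 genes with a mean intensity of at least 100 and group means spanning at least 1 log2 unit. The highest 5 were PIK3IP1 (0.995), HKDC1 (0.995), FKBP5 (0.990), CROCC (0.988) and BMF (0.987). The 8 arrays fall into 4 treatments and these values describe that shared order only. PIK3IP1, an inhibitor of PI3 kinase, had 2368 and 2360 with the combination, 1086 and 1018 with dexamethasone, 354 and 386 with PF-03084014, and 138 and 271 with DMSO. FKBP5, a known target of the glucocorticoid receptor, had 12873 and 12018 with the combination, 9736 and 9957 with dexamethasone, 7486 and 7720 with PF-03084014, and 5932 and 6398 with DMSO. BMF, a pro-apoptotic member of the BCL-2 family, had 579 and 518 with the combination, 247 and 284 with dexamethasone, 71.5 and 100.4 with PF-03084014, and 59.0 and 54.4 with DMSO.

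These genes were chosen for following ITGA6 over the same 8 arrays, so their direction is fixed by the choice and their differences are given with no test. The differences of the combination from DMSO were 1.01 ± 0.06 for FKBP5, 2.05 ± 0.16 for HKDC1, 3.03 ± 0.11 for CROCC, 3.27 ± 0.20 for BMF and 3.61 ± 0.30 for PIK3IP1 (log2 difference ± SE), beside 3.12 for ITGA6. With dexamethasone alone they were 0.68 ± 0.06 for FKBP5, 1.43 ± 0.16 for HKDC1, 1.79 ± 0.11 for CROCC, 2.23 ± 0.20 for BMF and 2.44 ± 0.30 for PIK3IP1, beside 2.08 for ITGA6. The sizes thus spanned a wide range around 1 shared order of the treatments.

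**Figure D5:**
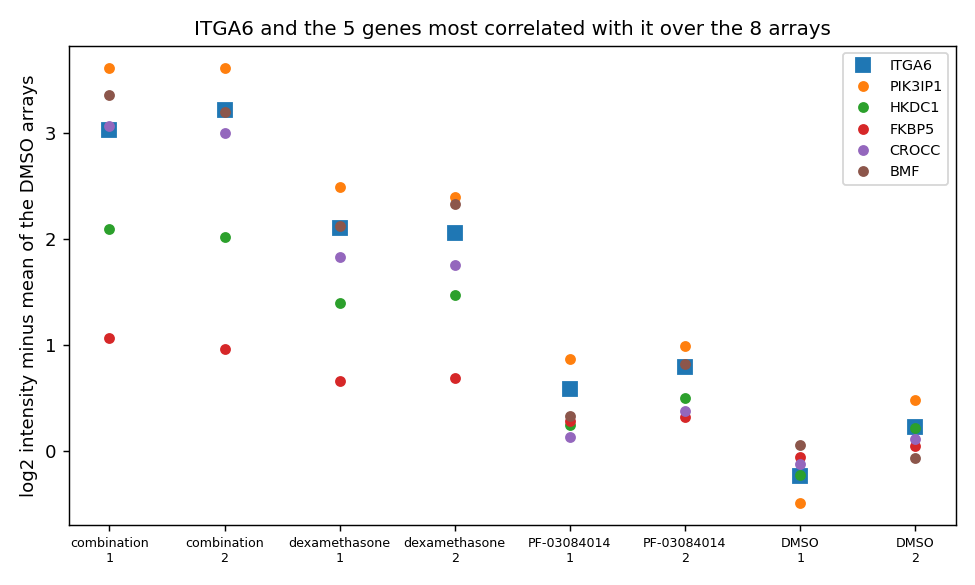
Log2 intensity of ITGA6 and of the 5 genes most correlated with it, each minus its mean over the DMSO arrays, on the 8 arrays. All 6 genes are highest on the combination arrays and stand above DMSO on the dexamethasone arrays; FKBP5 spans the smallest range.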

How the data were processed

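Total RNA of 8 CUTLL1 samples was labelled for the array with a kit that amplifies from the 3 prime end, per the labels. The deposited values are intensities, 1 per probe set and array, not on a log scale. How the authors summarised and normalized them is not given in the sources used here. Probe sets were named through the platform annotation: 11777 had no gene and 1801 several, and neither were tested. Intensities below 16 were set to 16 and log2 values fitted over all 4 groups with limma 3.58.1 (R 4.3.3), with an intensity trend, 4 residual degrees of freedom and Benjamini-Hochberg adjustment. A gene was read from its brightest probe set, and a second fit used every probe set. The fit was tested on simulated data. Replicate numbers did not pair the samples (r of replicate differences between groups -0.010 to 0.082). With 2 arrays a group their number limits the precision. The integrin genes, the gene lists and the promoter motifs were chosen with earlier results of these data known. The text names every integrin gene listed, per list the genes called in any comparison (otherwise the one with the smallest p), at most 4 a comparison, and the 5 genes most correlated with ITGA6. The glucocorticoid and NOTCH target lists are given as counts with 1 example each. Outside this rule, ITGB4, ITGAV, ITGA2, ITGA10, ITGB8 and some cell type markers are also named. Alternatives are listed in the closing section.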

Additional observations from a re-analysis of the deposited data

How the results depend on the processing

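The 20 alternatives were quantile normalization, arrays shifted to a common median, floors of 32 and 64, a pseudocount of 16 in place of the floor, genes with a mean of at least 100 only, each gene as its probe sets' mean, probe sets ending in _s_at or _x_at left out, all probe sets tested together, no intensity trend, only the groups compared, a replicate block, and each of 8 arrays left out; the counts of probe sets under them were added after seeing the data. No difference that the report calls for the 9 genes changed sign. Of 54 pairs of gene and comparison 18 changed sign at least once. Among them were the 4 ITGB2 pairs below, negative without the first combination array and positive without the second. For dexamethasone against DMSO the 1 integrin gene called, ITGA6, became 0 under quantile normalization, floors of 32 and 64, the mean of probe sets, without _s_at and _x_at probe sets, all probe sets together, no trend, only the groups compared and the replicate block, and 0 to 0 with 1 array left out; it stayed called under the common median, the pseudocount and the minimum mean of 100. For the combination against DMSO the 2 called genes became 1 under the mean of probe sets and without _s_at and _x_at probe sets, and 0 with only the groups compared. Against dexamethasone the 2 became 0 under a floor of 64, the mean of probe sets and only the groups compared, 1 without _s_at and _x_at probe sets, and 0 to 5 with 1 array left out. Against PF-03084014 the 2 became 1 under the mean of probe sets and without _s_at and _x_at probe sets, 0 with only the groups compared, and 0 to 3 with 1 array left out. The interaction had 0 genes called and 0 to 1 with 1 array left out. Fitting only the groups compared leaves fewer samples. Without the first combination array the ITGB2 combination differences were -0.46 from DMSO, -0.49 from dexamethasone and -0.52 from PF-03084014, and the interaction was -0.54. Against dexamethasone ITGA5 was then 0.48 and ITGAE -0.34. That fit rests on the second combination array alone, and no call is read from it. The counts of calls with 1 array left out come from fits with 1 array in a group and are not read as results on the integrins. Of the 23 probe sets, the 0 called with dexamethasone became 1 under the common median, the pseudocount and the minimum mean of 100, and 0 to 1 with 1 array left out. The 3 called for the combination against DMSO became 0 with only the groups compared and 1 to 7 with 1 array left out, the 2 against dexamethasone became 1 under quantile normalization, 0 under floors of 32 and 64, no trend, only the groups compared and the replicate block, and 0 to 6 with 1 array left out, and the 2 against PF-03084014 became 0 with only the groups compared, 1 with the replicate block and 0 to 5 with 1 array left out; the 0 of the interaction became 0 to 1. The replicate block changed no other count of integrin calls; the cause of these changes was not tested. The common median moved the median of all genes to -0.08 in the combination against dexamethasone, against 0.04, to -0.07 against PF-03084014, against 0.03, and to -0.12 in the interaction, against 0; ITGA6 was then 0.93, 2.33 and 0.23 and ITGAM -1.11, -1.52 and -0.81. It also moved the share of higher among all called genes, to 37.3% for the combination against DMSO (53.8% otherwise), 100% for dexamethasone (85%), 47.2% for PF-03084014 (57.4%), 22.6% for the combination against dexamethasone (45.1%) and 27.2% against PF-03084014 (38.3%). The dim probe sets of ITGA6, ITGAM and ITGB1 were at or below the control 90th percentile on 4 or more arrays, which limits what they can show.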
